A study of Mus musculus with 4 samples.

Results

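T cell receptor gene segments are the germline pieces from which the receptor chains of T cells are assembled. Here they were the genes whose symbol names a variable (V), joining (J), diversity or constant piece of the alpha, beta, gamma or delta chain and that had a probe set listing no other symbol. The array held 136 such segments among 30142 named genes: 116 V segments, 19 J segments and 1 constant segment, Tcrg-C3. Each segment had a single probe set listing no other symbol, so the rule of keeping the brightest probe set of a symbol removed none. Some of these segments were also listed by probe sets shared with other symbols, which were left out. The group was selected on results already seen in these 4 arrays, in which segments such as Traj14, Traj1 and Trbv20 had stood among the genes with large differences. Levels and differences of the segments are therefore given as descriptions, and the only tests are those fitted over all genes.

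RNA came from hepatic macrophages of the livers of male C57BL/6J mice with a disease that the labels call the CRCLM model, in a series on colorectal cancer spread in the liver. The mice received an antibody against CCL3, a chemokine to which monocytes and macrophages migrate, or a control antibody of the same isotype. Both antibody groups had 2 arrays, of cell fractions named after F4/80 and CD11b with a closing m or p, letters that the labels do not explain. Each combination of antibody and fraction was 1 array, and the labels give no age and do not say whether separate animals were used, so p-values measure only the spread left among these arrays. All values are log2 signals, with fraction m given before fraction p, a difference is anti-CCL3 minus isotype or p minus m, and standard errors (SE) are those of a fit of both terms to 4 arrays.

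In a developing T cell, recombination of DNA joins a V segment to a J segment, with a diversity segment between them in beta and delta chains, and splicing then links the joined exon to a constant segment. Macrophages belong to another lineage of blood cells, so markers of T cells are given with the segments here. Joining segments code for a short stretch at the end of the antigen-binding domain, whereas V segments code for most of that domain. The segments with a probe set of their own were 85 V segments of the alpha chain, 21 of the beta chain, 5 of the gamma chain and 5 of the delta chain, with 18 alpha J segments and the gamma segment Trgj3. In the RefSeq gene table V segments had a median length of 501 bases (range 213 to 1739) and J segments of 61 bases (29 to 72), and 6 V and 8 J segments were listed as pseudogenes.

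Markers of macrophages lay mostly within the range of the negative controls, as did most segments. Negative-control probe sets, which measure the background of the array, had a median of 6.34 (interquartile range 5.27 to 7.84), and their median standard deviation (SD) over the arrays was 0.73. Of the macrophage and Kupffer cell list, 14 of 14 markers had a probe set, with a median of 6.22, and Csf1r, the receptor that macrophages need to survive, was at 5.38 while the scavenger receptor gene Marco, at 8.40, was the highest. Adgre1, which codes for F4/80, was at 6.43 and Itgam, which codes for CD11b, at 6.26. In bulk RNA, fewer cells of a type and less RNA per cell cannot be told apart.

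V segments sat close to the median of the negative controls, and J segments spread more widely within the controls' range. Their means lay between the 4.56th percentile of the controls (Traj60) and the 99.4th (Traj55). The median over V segments was 6.61 (interquartile range 5.95 to 7.23), against 6.16 over all genes. Over J segments it was 7.41 (6.24 to 11.28), and the range ran from 4.06 for Traj60 to 18.61 for Traj55. Of V segments 17 (14.7%) exceeded the upper quartile of the negative controls and none their 95th percentile of 11.6, whereas 9 of 19 J segments (47.4%) exceeded the upper quartile and 4 (21.1%) the 95th percentile. Over all genes these shares were 8.69% and 0.94%. Probe sets bind their targets to different degrees, so brightness was not read as abundance and these are distributions only.

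**Figure D1:**
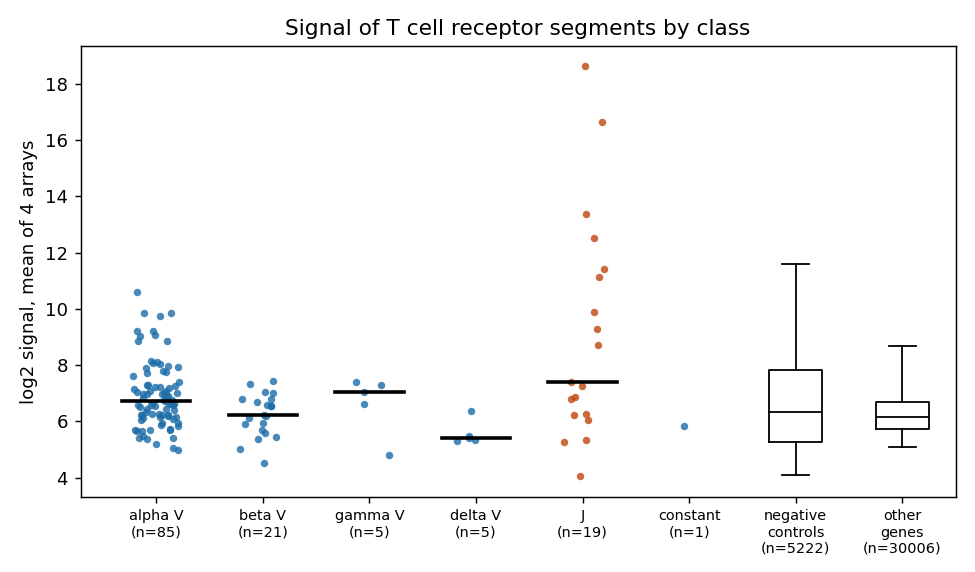
Mean log2 signal over the 4 arrays on the y axis for V segments by chain, J segments and the constant segment, with a point for each segment and a bar at the class median, beside boxes for 5222 negative controls and 30006 other genes (quartiles and median, whiskers at the 5th and 95th percentiles). V segments of every chain lie below 10.6, and J segments reach 18.61.

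Array by array, the V median was 6.67 and 6.62 on the anti-CCL3 arrays, and 6.62 and 6.59 on the isotype arrays. The J median was 7.39 and 8.04 on the anti-CCL3 arrays and 8.01 and 7.83 on the isotype arrays. The lowest J median was thus on the fraction m array of the anti-CCL3 group, and the other 3 lay within a narrow band.

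Other short genes were set beside the J segments. Genes outside these loci of at most 75 bases, 306 in number and mostly small RNAs, had a median of 6.47, and 3.92% of them exceeded the negative controls' 95th percentile. Their median SD over the arrays was 0.34, below the 0.42 of J segments and above the 0.25 of V segments and the 0.14 of all genes. By type it was 0.31 for 193 microRNAs, 0.36 for 15 pseudogenes, 0.42 for 52 small nucleolar RNAs and 0.51 for 37 small nuclear RNAs. The 2528 other genes of 76 to 150 bases had a median level of 7.38 and a median SD of 0.38. Of these 42.6% exceeded the negative controls' upper quartile and 7.71% their 95th percentile, against 47.4% and 21.1% of J segments. Among the genes of at most 75 bases 26.8% exceeded the upper quartile. Median levels and spreads near those of J segments were thus found in other genes, but the share above the 95th percentile was larger for J segments. Immunoglobulin V segments, 199 genes of the corresponding loci of B cells, had a median of 6.76 and a median SD of 0.28, beside 6.61 and 0.25 for T cell receptor V segments. A range of over 1 across the 4 arrays was found for 16 V segments (13.8%), 10 J segments (52.6%) and 35.6% of the other short genes, against 10.1% of all genes.

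**Figure D2:**
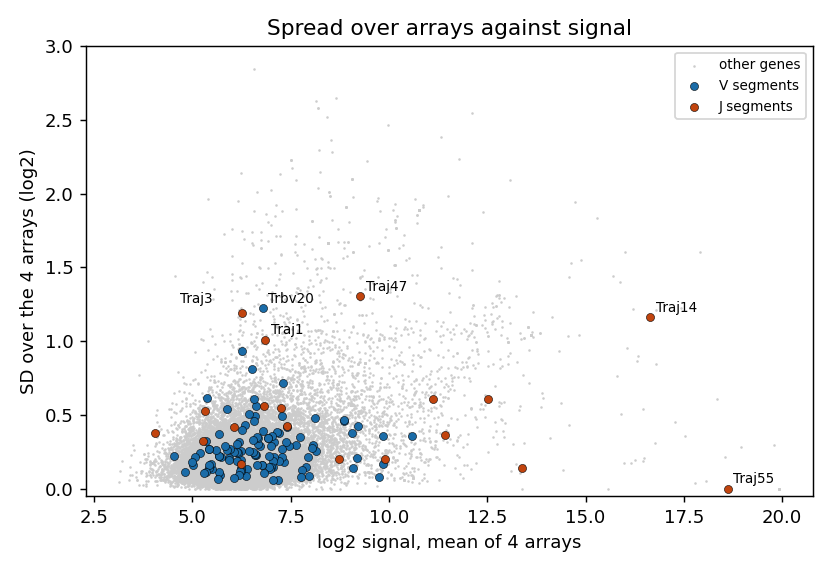
SD over the 4 arrays on the y axis against mean log2 signal on the x axis, with V segments, J segments and 30006 other genes as points, 4 of which lie above the plotted range. The largest SDs among the segments belong to Traj47 (1.30), Trbv20 (1.22), Traj3 (1.19) and Traj14 (1.16).

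Some J segments were level over the arrays. Traj55, listed as a pseudogene, had the same value, 18.61, on all 4 arrays, which was so for 285 of the 72688 probe sets, and a fixed value of this kind gives no measure of spread. Traj25 measured 13.25 and 13.57 on the anti-CCL3 arrays, and 13.43 and 13.30 on the isotype arrays (SD 0.14). Its arrays overlapped between antibody groups and between fractions. Traj54 (SD 0.20), Traj57 (0.21) and Traj8 (0.17) varied less than the J median of 0.42, but more than the all-gene median of 0.14.

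Other J segments differed on a single array. Traj3 was at 5.72 and 8.04 on the anti-CCL3 arrays and at 5.72 and 5.55 on the isotype arrays, so only the anti-CCL3 fraction p array stood apart. Traj29 was at 10.82 and 10.82 on the anti-CCL3 arrays and at 10.83 and 12.05 on the isotype arrays, with the isotype fraction p array apart and the other 3 nearly equal. Trgj3, the only gamma J segment with a probe set of its own, had 5.20 and 4.95, then 5.05 and 6.10, and again the isotype fraction p array was the high one.

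That array held the highest value for most J segments. Of the 18 J segments whose values varied, 12 were highest on the isotype fraction p array, 4 on the anti-CCL3 fraction p array, 2 on the isotype fraction m array and 0 on the anti-CCL3 fraction m array. For V segments the same counts were 20, 26, 27 and 43 of 116, and over all genes 25.8% were highest on the isotype fraction p array and 34.0% on the anti-CCL3 fraction m array. The J segments' count on the isotype fraction p array became 14 of 19 with quantile or cyclic loess normalisation and 13 of 19 with median centring, and that on the anti-CCL3 fraction m array remained at 0. The pattern of V segments and of all genes depended on the scaling. With quantile normalisation 33 V segments were highest on the isotype fraction p array and 30 on the anti-CCL3 fraction m array, and over all genes these shares were 31.4% and 24.8%. With cyclic loess normalisation the V counts were 30 and 33, and the all-gene shares 27.9% and 27.1%. With 1 array for each combination, the array and the combination cannot be told apart.

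**Figure D3:**
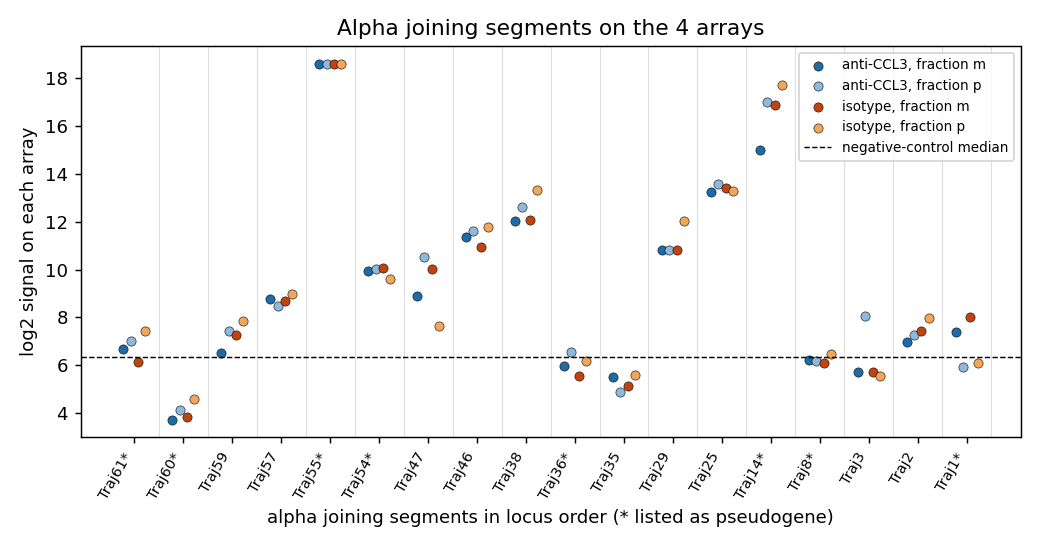
Log2 signal on the y axis for the 18 alpha J segments in the order of the locus on the x axis, with a point for each of the 4 arrays, a star for segments listed as pseudogenes and a dashed line at the negative-control median of 6.34. Traj55, Traj14, Traj25 and Traj38 stand furthest above the line on every array, with others such as Traj46 and Traj29 also well above it, while Traj60, at 4.06 on average, lies far below it.

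Fraction p was compared with fraction m across both antibody groups. J segments leaned to higher signal in fraction p, with a median difference of 0.41, and V segments to slightly lower signal, with a median of -0.10, against -0.02 over all genes. Within the anti-CCL3 group these medians were 0.26 for J and -0.10 for V segments, and within the isotype group 0.56 and -0.07. The V median was -0.036 with quantile and -0.049 with cyclic loess normalisation, where all genes were at 0.0051 and -0.0032, and the J median was 0.56 and 0.54. The difference was above 0 for 14 J segments and below 0 for 4, and above 0 for 44 V segments and below 0 for 72. The share above 0 was 73.7% of J and 37.9% of V segments, against 45.1% of all genes and 38.7% of the genes tested. The V and J shares include segments too dim to be tested, so all genes are the matching set. In the anti-CCL3 pair alone 13 J segments were higher in fraction p, and in the isotype pair 13, but these were not all the same segments. The pairs had opposite signs for 8 J segments (42.1%) and 49 V segments (42.2%), against 45.0% of all genes. The difference between V and J segments was not tested, since it was seen in these arrays before.

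No segment passed the threshold of 0.05 on limma's p-value adjusted by the method of Benjamini and Hochberg over 15071 genes, nor did any other gene (0%). Of the 136 segments 96 were bright enough to enter the fit, 81 V and 15 J, which is 69.8% of V and 78.9% of J segments against 50% of all genes. The smallest adjusted p of a segment for the fraction, from limma with Benjamini-Hochberg adjustment, was 0.398, for Traj1. At an unadjusted limma p below 0.05 stood 3 higher and 1 lower J segments and 2 higher and 7 lower V segments, among 255 higher and 1144 lower genes of all 15071.

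Both fraction p arrays exceeded both fraction m arrays for 7 of 19 J segments (36.8%) and 14 of 116 V segments (12.1%), against 16.0% of all genes. Both lay below for 1 J segment, Traj1 (5.26%), and 32 V segments (27.6%), against 20.6% of all genes. The 7 J segments were Traj14, Traj36, Traj38, Traj46, Traj59, Traj60 and Traj61, of which Traj36 and Traj60 were too dim to be tested. Quantile normalisation put 16 of 19 J segments above 0 (84.2% against 73.7% as deposited), as did cyclic loess normalisation. With either of these normalisations the V segments without overlap were 22 higher and 26 lower in fraction p (19.0% and 22.4%), more even than the 14 and 32 as deposited. Over all genes quantile normalisation gave 18.8% and 18.0%, and cyclic loess normalisation 18.1% and 19.0%.

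**Figure D4:**
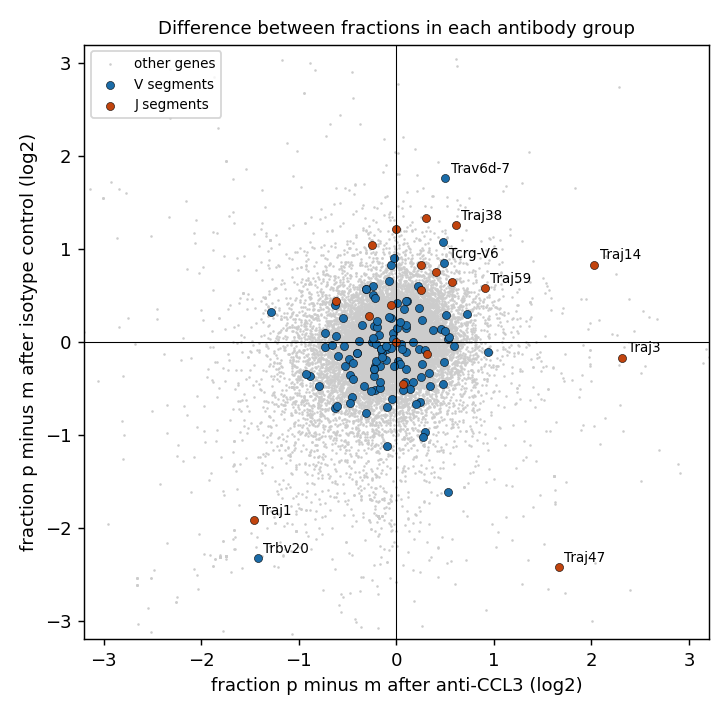
Difference p minus m in the isotype group on the y axis against the same difference in the anti-CCL3 group on the x axis, both in log2 units, for V segments, J segments and other genes, 77 of which lie outside the axes. Points in the upper right quadrant are higher in fraction p in both groups, where Traj14 and Traj38 lie, and Traj1 and Trbv20 lie at the lower left.

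Traj14, an alpha J segment of 34 bases listed as a pseudogene, had the largest positive fraction difference of a tested segment. Its signal was 14.99 and 17.02 on the anti-CCL3 arrays, and 16.87 and 17.70 on the isotype arrays. Both fraction p arrays were above both fraction m arrays, by 2.03 in the anti-CCL3 pair and 0.83 in the isotype pair, and the fitted difference was 1.43 ± 0.38 (SE, 4 arrays). Traj38 followed the same order from 12.02 and 12.63 on the anti-CCL3 arrays to 12.07 and 13.32 on the isotype arrays, a difference of 0.93 ± 0.23 (SE), which was 1.58 with quantile and 1.59 with cyclic loess normalisation. Neither fraction overlapped the other.

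Traj59 measured 6.52 and 7.42 on the anti-CCL3 arrays and 7.26 and 7.83 on the isotype arrays, with a fraction difference of 0.74 ± 0.15 (SE). Traj61 measured 6.69 and 7.00, then 6.11 and 7.45, at 0.82 ± 0.33 (SE). For both the fraction m arrays were the lower ones. Traj46 was at 11.38 and 11.63, then 10.94 and 11.77, at 0.54 ± 0.21 (SE), which was 1.26 with quantile and 1.14 with cyclic loess normalisation. Traj2 was at 6.99 and 7.25, then 7.43 and 7.99. In Traj2 the fractions overlapped, since the isotype fraction m array exceeded the anti-CCL3 fraction p array.

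Traj1, a J segment of 29 bases listed as a pseudogene, went the other way from the J segments above. It was at 7.39 and 5.93 on the anti-CCL3 arrays, and at 8.01 and 6.09 on the isotype arrays. Both fraction p arrays lay more than 1 below both fraction m arrays, and the fitted difference was -1.69 ± 0.18 (SE). Among V segments Trbv20 had the same order, with 7.06 and 5.64 on the anti-CCL3 arrays, 8.39 and 6.06 on the isotype arrays and a difference of -1.87 ± 0.30 (SE). Both genes were brightest on the isotype fraction m array.

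The V segments with the largest agreeing negative fraction differences after Trbv20 came from several chains. Tcrg-V3, a gamma V segment, was at 7.87 and 7.23 on the anti-CCL3 arrays and 7.63 and 6.92 on the isotype arrays, a difference of -0.67 ± 0.11 (SE). Trbv29, a beta V segment listed as a pseudogene, was at 7.02 and 6.41, then 7.24 and 6.54, at -0.65 ± 0.12 (SE). In both, fraction m and fraction p did not overlap. The remaining V segments named by the rule were Trav3-1, Trav3d-2, Trav3n-2, Trav3n-3, Trav6d-4 and Trav15n-1, and over all 10 segments named as lower, the adjusted p of limma with Benjamini-Hochberg adjustment ran from 0.398 to 0.568.

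Of the 10 segments named as higher in fraction p, 4 were V segments and 6 J segments. Trav6d-7 was at 5.53 and 6.03 on the anti-CCL3 arrays and 5.88 and 7.64 on the isotype arrays, a difference of 1.13 ± 0.40 (SE) that rested mostly on the isotype fraction p array. Tcrg-V6 was at 6.55 and 7.04, then 7.40 and 8.25, at 0.67 ± 0.16 (SE). In Tcrg-V6 the fractions overlapped. Trav16n, at 6.46 and 6.94, then 5.95 and 7.03, had a difference of 0.78 ± 0.22 (SE), and Trav7-6 was the fourth, with limma's Benjamini-Hochberg adjusted p between 0.469 and 0.637 over these 10.

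Families of alpha V segments share sequence and have near-identical copies marked d and n. Members of some families shared a direction as deposited, and those of others did not. Directions here are those of the mean over both pairs unless both are named. In the Trav6 family of 7 the fraction differences ran from -0.57 to 1.13 and the antibody differences from -0.97 to 0.997. In the Trav7 family of 11 the antibody differences ran from -0.56 to 0.69, and 3 of 7 Trav4 members were lower in fraction p. The Trav10 family had 0 of 3 members lower in fraction p, with differences from 0.09 to 0.29. In the Trav12 family 5 of 5 members were lower in fraction p on the mean of both pairs as deposited, and 3 of 5 after quantile or cyclic loess normalisation. The pairs disagreed in sign, since all 5 were higher in fraction p in the anti-CCL3 pair and lower in the isotype pair. The Trav3 family had all 5 members lower in fraction p in both pairs, with differences from -0.63 to -0.41, and all 5 differences stayed below 0 in each of 3 other normalisations (quantile, median centring, cyclic loess). Their size depended on the scaling: the median of -0.54 was -0.31 with quantile normalisation, with a range of -0.41 to -0.23, and -0.38 with cyclic loess normalisation, and 4 of 5 were then without overlap under either. Trav3d-2 had 9.52, 8.63, 8.84 and 8.48 in the order anti-CCL3 m and p, isotype m and p, and Trav3n-2 had 9.52, 8.60, 8.84 and 8.49. Such copies are known to be nearly alike in sequence, so these values are not separate measurements. The Trav9 family, with a median level of 6.17, had all 10 members lower in fraction p under every one of these scalings, with differences from -0.42 to -0.05 as deposited, and 5 of the 10 did not overlap between fractions. Trav9n-3 and Trav9n-4 changed sign between the pairs. In the Trav13 family 8 of 11 were lower as deposited, but 6 after quantile and 5 after cyclic loess normalisation.

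The copies bear on every count of V segments. Trav14d-2 and Trav14n-2, Trav5d-3 and Trav5n-3, and Trav7d-5 and Trav7n-5 shared their values on all 4 arrays, so the 136 segments held 133 distinct profiles. Whether the probes tell other copies apart was not tested, and a value named for 1 copy is uncertain for that reason.

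The antibody comparison asked how the anti-CCL3 arrays differed from the isotype arrays in both fractions. V segments had a median difference of 0.06 and J segments of -0.16, against 0.02 over all genes. With quantile and cyclic loess normalisation the V median was 0.012 and 0.011 and the J median -0.45 and -0.41, with all genes at -0.011 and -0.0006. For V segments the median was 0.06 in fraction m and 0.08 in fraction p. For J segments it was -0.01 in fraction m and -0.41 in fraction p, so the J median came from the fraction p arrays.

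By limma with Benjamini-Hochberg adjustment 0 segments and 0 of 15071 genes (0%) passed 0.05 for the antibody, and the smallest adjusted p of a segment was 0.485, for Tcrg-V6. At an unadjusted limma p below 0.05 were 5 V segments higher and 1 lower on the anti-CCL3 arrays and 2 J segments lower, among 974 higher and 208 lower genes. Both anti-CCL3 arrays exceeded both isotype arrays for 28 V segments (24.1%) and 0 J segments, against 18.9% of all genes. Both lay below for 11 V segments (9.48%) and 2 J segments (10.5%), Traj2 and Traj29, against 13.0% of all genes, although in Traj29 the fraction m arrays were nearly equal. With quantile or cyclic loess normalisation 20 V segments (17.2%) were higher and 15 (12.9%) lower without overlap, against 14.8% and 17.5% of all genes with quantile and 16.2% and 15.8% with cyclic loess normalisation.

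The sign of the antibody difference was counted by chain. It was above 0 for 60 of 85 alpha V segments and 5 of 5 delta V segments, for 3 of 5 gamma V segments, and below 0 for 16 of 21 beta V segments. Quantile normalisation lowered the alpha count to 48 and cyclic loess normalisation to 49, and the beta count below 0 was 18 and 16 under these. Over all V segments the count above 0 was 73 of 116 (62.9%) as deposited, 59 (50.9%) after quantile and 62 (53.4%) after cyclic loess normalisation. The shares of all genes were 55.1%, 47.0% and 49.8%, and that of the genes tested 59.9% as deposited. The V count includes segments too dim to be tested, so all genes are the matching set. For J segments the count above 0 was 7 of 19 (36.8%), 3 (15.8%) and 4 (21.1%). The difference between chains was not tested.

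**Figure D5:**
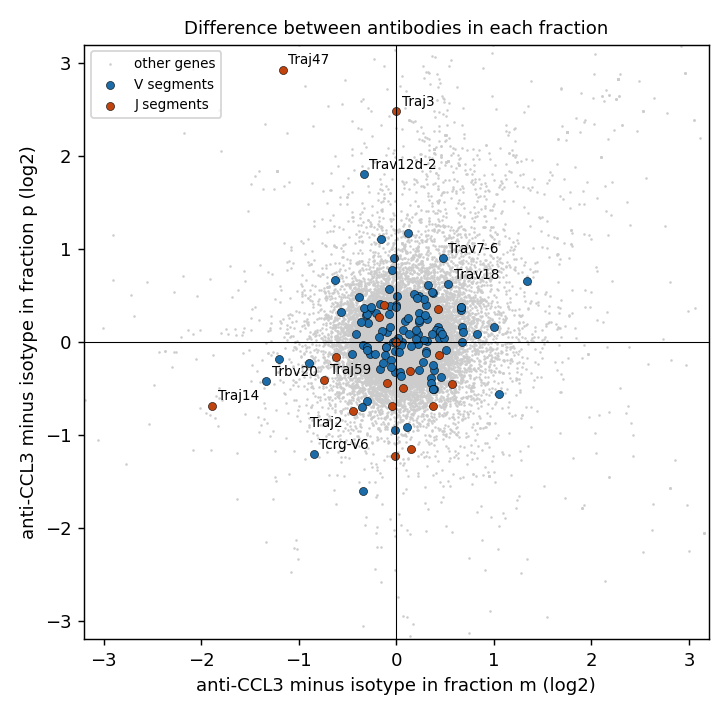
Difference anti-CCL3 minus isotype in fraction p on the y axis against the same difference in fraction m on the x axis, both in log2 units, for V segments, J segments and other genes, 71 of which lie outside the axes. Traj14 and Tcrg-V6 lie at the lower left, below 0 in both fractions, and Traj47 and Traj3 lie high on the y axis with no matching value on the x axis.

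Tcrg-V6, a gamma V segment, had the lowest agreeing antibody difference of the V segments. With the values given above, both anti-CCL3 arrays lay below both isotype arrays, and the difference was -1.03 ± 0.16 (SE, 4 arrays). Traj14 had -1.29 ± 0.38 (SE), made of -1.89 in fraction m and -0.69 in fraction p, but its antibody groups overlapped, since 17.02 in the anti-CCL3 fraction p array exceeded 16.87 in the isotype fraction m array. Traj2, whose groups did not overlap, was at -0.59 ± 0.14 (SE), and Traj59, whose groups did, at -0.57 ± 0.15 (SE).

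The other segments named as lower on the anti-CCL3 arrays were Trbv20, at -0.88 ± 0.30 (SE), Trav6d-7, at -0.97 ± 0.40 (SE), and Trbv2, Trbv31, Trav7d-2 and Trav3-1. Trbv20 overlapped between antibody groups, and its fractions lay further apart than its antibody groups. Limma's Benjamini-Hochberg adjusted p ran from 0.485 to 0.751 over the 10 segments named as lower, and from 0.525 to 0.686 over the 10 named as higher.

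All 10 segments named as higher on the anti-CCL3 arrays were alpha V segments. Trav18 was at 7.39 and 7.22 on the anti-CCL3 arrays and at 6.86 and 6.60 on the isotype arrays, a difference of 0.58 ± 0.12 (SE). Its anti-CCL3 arrays were both above its isotype arrays. Trav7-6 was at 6.42 and 7.14, then 5.94 and 6.24, at 0.69 ± 0.17 (SE), with no overlap either. The identical pair Trav14d-2 and Trav14n-2 was at 7.38 and 6.98, then 6.72 and 6.60, at 0.52 ± 0.14 (SE). Their family, Trav14, had all 6 members above 0 on the mean of both fractions as deposited, from 0.12 to 0.52. This held after each of the 3 other normalisations, and 5 of 6 were without overlap. The exception, Trav14-1, changed sign, with -0.17 for m but 0.41 for p. Probe sets listing several Trav14 symbols lay outside these counts. That of Trav14-1 and Trav14d-1 had a mean difference of -0.15 and was below 0 for m and p alike. Those listing Trav14d-3-dv8 were at 0.22 with Trav14n-3 and at 0.03 with Trav14-3.

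Trav15n-1 and Trav11n stood among these 10 and were lower in fraction p as well. Trav15n-1 was at 8.76 and 7.97 on the anti-CCL3 arrays and 8.09 and 7.62 on the isotype arrays, with antibody and fraction differences of 0.50 ± 0.15 and -0.63 ± 0.15 (SE), the former 0.32 with quantile normalisation. Trav11n, the brightest V segment, was at 10.94 and 10.71, then 10.61 and 10.10. Its antibody difference of 0.47 ± 0.14 (SE) became -0.07 after quantile and -0.01 after cyclic loess normalisation. The 95th percentile of transcript clusters was 10.1 and 9.77 on the anti-CCL3 arrays and 9.74 and 9.39 on the isotype arrays. Bright probe sets as a whole were thus higher in the anti-CCL3 group and, within each antibody group, in fraction m. The part of this in the segments' antibody and fraction differences was not tested. Trav13d-2 was the 1 of 11 Trav13 segments with a difference below 0 as deposited, and 5 of the 11 were below 0 after quantile or cyclic loess normalisation.

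Some V segments were level over the arrays. Trav1, the fourth brightest, had a mean of 9.75 with an SD of 0.08 over the arrays. Trav12-2 and Trav4d-4 had the smallest SDs of the V segments, both 0.06. Tcrg-C3, the constant segment, had 6.19 and 5.30 on the anti-CCL3 arrays and 5.69 and 6.19 on the isotype arrays, and was below the brightness needed for the test, a mean of 6.16.

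Genes of the proteins that T cell receptors need were measured on the same arrays, from lists of genes for T cells, the receptor complex, its signalling and recombination. Of 16 T cell markers 14 had a probe set and 12 were tested, with a median level of 6.35 and median differences of 0.03 for the antibody and -0.07 for the fraction. The summed log2 level of these markers was 89.3 to 90.0 on the anti-CCL3 arrays and 88.9 to 89.4 on the isotype arrays. In neither contrast was any of them called. Whether T cells contributed to the segments' values was not tested.

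Chains of CD3, which carry the receptor's signal into the cell, lay near the negative controls. Cd3d was at 6.24 and 6.83 on the anti-CCL3 arrays and 6.12 and 6.78 on the isotype arrays, with both fraction p arrays above both fraction m arrays. This order held for only 1 of the 14 T cell markers (7.14%), against 16.0% of all genes. For 3 markers (21.4%) both fraction p arrays lay below, against 20.6% of all genes, and for 10 of the 14 the fraction difference was below 0. Cd3e was at 5.53 on average and Cd3g at 7.51, with fraction differences of -0.10 and -0.09. The co-receptor genes Cd4 and Cd8a were at 6.29 and 6.49. All 8 genes of the receptor complex list, which adds Ptcra of the pre-receptor, had a median antibody difference of 0.06 and a median fraction difference of -0.08, and 0 of the 6 tested passed.

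Signalling genes downstream of the receptor varied less than the segments. Of 22 genes 19 had a probe set and 8 were tested, with a median level of 6.05. Their median SD over the arrays was 0.08, against 0.25 for V and 0.42 for J segments. Over all protein-coding genes it was 0.11, so a low spread was not particular to this list. Lat, an adaptor of the receptor's signal, was the brightest at 7.83, and the kinase gene Zap70 was at 5.77. Icos, a costimulatory receptor, had the largest antibody difference, 0.37, at -0.35 for m and 1.08 for p, so the fractions disagreed in sign. No gene of this list was called in either contrast.

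The recombination machinery was dim. Of 11 genes 8 had a probe set, with a median of 5.73, and the DNA ligase gene Lig4 and the end-joining gene Nhej1, at 6.45 and 6.33, were the 2 tested. Rag2, a subunit of the enzyme that cuts at segments, was at 5.95, and Dntt, which adds bases at the joints, at 5.76. Neither tested gene was called in either contrast.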

How the data were processed

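Per the submitters' processing notes, the authors ran RMA (robust multi-array average) in Affymetrix Expression Console. What they deposited are log2 signals per probe set, used here as they stand. The sources used here name no software versions. Of 65956 transcript clusters, 30604 had 1 symbol in the platform annotation and 2146 had several, which were left out. A gene was represented by its brightest probe set (30142 genes), and the genes with at least the median mean signal, from 6.16 up, were tested (15071). limma 3.58.1 in R 4.3.3, with package data.table in version 1.17.8, was given antibody and fraction as additive terms, with empirical Bayes moderation, 1 residual degree of freedom and a prior of 1.69. P-values were adjusted by Benjamini-Hochberg at 0.05 over all genes tested. The prior limits how small an SE can be: the smallest was 0.11. The fit was checked on simulated data. Those data had the same spread for every gene, unlike these arrays, so the check does not show what the fit could call here. All 136 segments were found among the genes of RefSeq, which gave lengths and pseudogene status.

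Named segments were the constant segment, the 5 brightest V and 5 brightest J segments and, for each contrast and direction, the 10 tested segments whose smaller paired difference was largest. Segments with other extreme values, such as Traj3, Traj29, Traj60, Trgj3, Trav12-2 and Trav4d-4, were named after their values were seen, as was the division by chain. The members and gene lists were chosen with earlier results of these data known. Alternatives were quantile, median and cyclic loess normalisation, the mean of a symbol's probe sets, other brightness filters, a fit without the other term, a trended prior, leaving out each array, leaving out pseudogenes or dim segments, and counting shared profiles once.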

Additional observations from a re-analysis of the deposited data

Results flagged for a closer look

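For 11 segments the antibody difference had opposite signs in the 2 fractions, with more than 1 between them. Fraction m is given first. The differences between fractions were not tested, because each side is 1 array. Opposite signs of the antibody difference were found for 47 V segments (40.5%) and 10 J segments (52.6%), against 47.5% of all genes.

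Traj47 stood furthest apart, at -1.16 and 2.93, with 8.88 and 10.55 on the anti-CCL3 arrays and 10.04 and 7.62 on the isotype arrays. Traj3 was at -0.0009 and 2.48, so the sign in fraction m carries no weight. The other J segments were Traj61, at 0.57 and -0.45, Trgj3, at 0.15 and -1.15, and Traj35, at 0.37 and -0.69.

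Among V segments Trav12d-2 was at -0.34 and 1.80, Trav12n-2 at -0.16 and 1.11, and Trav6-1 at -0.63 and 0.67. Trav16d-dv11 was at 1.05 and -0.56, and Trav7n-4 at 0.11 and -0.92. The constant segment Tcrg-C3 was at 0.51 and -0.88. In the fraction contrast it was at -0.89 on the anti-CCL3 arrays and 0.50 on the isotype arrays.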

How the results depend on the processing

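No segment was called for either contrast under any alternative fit. The smallest adjusted p of limma with Benjamini-Hochberg adjustment ran from 0.419 to 0.958 for the antibody and from 0.324 to 0.788 for the fraction. The median antibody difference of V segments, 0.06 as deposited, was 0.012 with quantile, 0.042 with median and 0.011 with cyclic loess normalisation, and 0.094 without pseudogenes, and leaving out each array gave 0.064 to 0.085. That of J segments, -0.16, was -0.45 after quantile and -0.41 after cyclic loess normalisation and -0.083 over the segments bright enough to be tested, and leaving out each array gave -0.41 to -0.01. The median fraction difference of V segments, -0.10, was -0.036 with quantile, -0.084 with median and -0.049 with cyclic loess normalisation, -0.14 over the segments bright enough to be tested, and -0.098 to -0.075 with each array left out. That of J segments was 0.26 to 0.56 with each array left out. The median SD of V segments was 0.227 after quantile and 0.229 after cyclic loess normalisation, and that of J segments 0.61 after quantile normalisation. The median level of J segments without pseudogenes was 8.72. The antibody difference of Trav11n turned to -0.074 after quantile and -0.0064 after cyclic loess normalisation. The cause of these shifts was not tested. With an array left out no residual degree of freedom remains, so these are values without a test. The labels give no replicate numbers, and the fit of both terms pairs the arrays by fraction and by antibody; without the other term 0 segments were called as well. With 4 arrays and signals near those of the negative controls, small differences could not be resolved. Large ones were not called either: differences of tested genes reached 5.09 for the antibody and -4.56 for the fraction, and 0 genes were called. The lack of calls therefore says little about the size of any difference.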

Other observations

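A further 26 transcript clusters listed a receptor segment together with another symbol and were outside every count above. Their mean levels ran from 4.55 to 9.40, with a median of 6.75. Some listed a segment counted above. Trav12n-1 had the same values in its own and a shared cluster, whereas Trav4d-4 was at 7.18 in its own and 9.40 in a shared one. Trav7d-2 had antibody differences of -0.90 in fraction m and -0.23 in fraction p in its own cluster. In a cluster shared with Trav7-2 these were -0.87 and 0.32. The cluster shared by Trdc, Trdj1 and Trdj2, the constant and J segments of the delta chain, was at 5.90 and 6.02 on the anti-CCL3 arrays and 6.07 and 5.71 on the isotype arrays.

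The cluster shared by Trav6-6 and Trav6d-6 was at 6.91 and 6.84 on the anti-CCL3 arrays and 4.86 and 5.45 on the isotype arrays. This difference of 1.72 was the largest antibody difference of the 26 (2.05 for m, 1.39 for p). The remaining named copy, Trav6n-6, was at 5.99 and 5.77, then 4.65 and 5.11, with differences of 1.34 and 0.65, and was too dim to be tested in the fit above. In the fit without a brightness filter its limma p was 0.026, with a Benjamini-Hochberg adjusted p of 0.696. Both were singled out after their values were seen.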
